A study of Mus musculus with 12 samples.

Results

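The genes described here are 44 genes of the cell cycle and mitosis, chosen by symbol and all found among the 23234 genes of the expression table. They were followed in 12 libraries of total RNA from C57BL/6 mouse islets. The libraries formed 3 groups of 4: islets isolated from the pancreas and not transplanted, islet grafts recovered at day 60, and islet grafts recovered at day 120. The islets were grafted into subcutaneous white fat of the groin region (inguinal). The labels give the same strain for all 3 groups and name no transgene or drug. They do not state whether the libraries of a group came from separate animals or islet preparations, so the p-values cover only how these libraries scatter, and that scatter may be technical. Values are FPKM, fragments scaled to transcript length and to the mapped total of the library. The read depth behind them is unknown, so no counting interval can be given.

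The cell cycle copies the genome in S phase and divides it in mitosis. Cyclin E with Cdk2 drives the entry into S phase, while the retinoblastoma protein holds back the E2F transcription factors until D cyclins and their kinases act on it. The Mcm2 to Mcm7 proteins are loaded at replication origins as a ring-shaped helicase, which Cdc45 joins when the origin fires. Cyclin B with Cdk1 then drives mitosis, and the spindle checkpoint holds the anaphase promoting complex until every chromosome is attached. Adult beta cells divide rarely, and other cells of a graft, among them immune, vascular and stromal cells, can divide as well.

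The members' promoters differed by role in the motifs they hold. RefSeq start sites on GRCm38.p6, with 250 bases before and 50 after them, matched 37 of the 44 members and gave 40 windows. A CHR element, the cell cycle homology region known from late cell cycle promoters, was searched on both strands as the letters TTTGAA or as the palindrome TTCGAA. The CCAAT box was searched on both strands as those 5 letters. An E2F site was searched as any of 4 runs of letters, also on both strands. The first of these runs is TTTCGCG. The second run is TTTGGCG. The third run is TTCCCGC. The last is TTTCCCG, which can overlap the third. In the 20 windows of mitosis members, 85.0% held a CHR element and 15.0% an E2F site. In the 20 windows of members that act in G1/S, replication, nucleotide supply and chromatin, the order was the other way round, with 15.0% for CHR and 60.0% for E2F. CCAAT boxes stood in 90.0% and 70.0% of them. Among all 32851 promoter windows the shares were 19.2% for CHR, 37.4% for CCAAT and 8.81% for E2F. A match of letters is a description of the window and says nothing of binding.

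The promoters of 4 members on which the results below turn are shown from 250 bases before to 30 after the RefSeq start, written 5′ to 3′ on the gene's own strand, with matched motifs in capitals on whichever strand they were found. Mcm6 and Mcm7 encode subunits of the same ring and moved in opposite directions. Ccnb2 and Top2a are a mitotic cyclin and a mitotic topoisomerase with CHR elements. Mcm7 has a second listed start, whose window is not printed. That window holds 0 CHR elements, 1 CCAAT box and 1 E2F match.
Mcm6 promoter, chr1:128359676-128359955, minus strand: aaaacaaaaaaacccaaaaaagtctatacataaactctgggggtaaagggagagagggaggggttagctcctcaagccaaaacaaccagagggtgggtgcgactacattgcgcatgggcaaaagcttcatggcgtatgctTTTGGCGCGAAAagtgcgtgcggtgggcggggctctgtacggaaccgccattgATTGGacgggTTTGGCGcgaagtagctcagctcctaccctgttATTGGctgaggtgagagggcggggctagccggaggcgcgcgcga
Mcm7 promoter, chr5:138171854-138172133, minus strand: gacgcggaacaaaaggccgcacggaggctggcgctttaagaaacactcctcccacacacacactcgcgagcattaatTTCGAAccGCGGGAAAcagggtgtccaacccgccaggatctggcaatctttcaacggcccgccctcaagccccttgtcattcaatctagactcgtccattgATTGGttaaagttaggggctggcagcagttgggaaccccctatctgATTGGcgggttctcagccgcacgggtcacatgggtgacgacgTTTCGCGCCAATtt
Ccnb2 promoter, chr9:70421525-70421804, minus strand: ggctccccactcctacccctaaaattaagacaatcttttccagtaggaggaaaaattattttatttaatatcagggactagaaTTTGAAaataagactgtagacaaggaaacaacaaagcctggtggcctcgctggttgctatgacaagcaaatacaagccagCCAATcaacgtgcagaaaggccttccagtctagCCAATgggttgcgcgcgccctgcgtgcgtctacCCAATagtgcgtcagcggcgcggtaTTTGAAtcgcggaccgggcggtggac
Top2a promoter, chr11:99024160-99024439, minus strand: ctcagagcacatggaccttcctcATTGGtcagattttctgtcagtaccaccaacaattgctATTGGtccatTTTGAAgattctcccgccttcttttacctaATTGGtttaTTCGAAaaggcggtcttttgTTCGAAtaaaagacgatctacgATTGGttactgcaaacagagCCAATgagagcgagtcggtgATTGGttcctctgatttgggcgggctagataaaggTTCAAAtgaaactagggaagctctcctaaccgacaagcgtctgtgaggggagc
The Mcm6 window holds 3 E2F matches, a pair of which overlap at 110 and 105 bases before the start, and its CCAAT boxes lie 57 and 14 bases before the start. The Mcm7 window also carries E2F matches, at 165 and 164 bases before the start, overlapping each other, and at 16 bases after it, and a CHR element 173 bases before it. The Ccnb2 window has CHR elements 167 bases before and 4 bases after the start and CCAAT boxes at 87, 54 and 21 bases before it. In Top2a the CHR elements lie 179, 140, 120 and 23 bases before the start, among 6 CCAAT boxes.

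Some libraries stood apart in ways that touch these genes. Summed FPKM of 9 beta cell markers ran from 600 to 2506, so the islet identity given in the labels was met in every library. Isolated islet replicate 1 had 2415 of beta cell markers against 605 to 843 in the other isolated islets, and 9282 of 20 acinar enzyme genes against 21070 to 106600. Day 60 replicate 2 had 150 of T and B cell markers against 7.65 to 30.9 in the other day 60 grafts, 6.19 to 19.0 at day 120 and 5.71 to 7.0 in isolated islets. All 10 of the T and B cell markers in the table were highest there. Day 60 replicate 1 had the highest macrophage sum, 5525, against 588 to 1396 in the other day 60 grafts and 78.8 to 124 in isolated islets. It also had the highest sums of fibroblast and matrix markers (5861 against 816 to 1212 in the other day 60 grafts), adipocyte markers (10770 against 317 to 3320) and red blood cell markers (28860 against 1855 to 2747), and the lowest beta cell sum of all libraries, 600.

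The members were expressed at low levels throughout. Their summed level was 142, 90.3, 88.4 and 80.5 FPKM in isolated islet replicates 1 to 4. It was 162, 193, 151 and 130 in the day 60 grafts, and 95.1, 118, 110 and 118 in the day 120 grafts. In these sums the day 60 grafts overlapped the isolated islets only through isolated islet replicate 1. Every day 120 graft lay below every day 60 graft and above isolated islet replicates 2 to 4. The sums lean on Pcna, the highest expressed member. In the mean of log2(FPKM + 1) over the members, day 120 replicate 1 (1.23) lay below isolated islet replicate 3 (1.25). There the day 120 grafts, at most 1.52, still lay below the day 60 grafts, at least 1.60. Day 60 replicate 2 had the highest value of all 12 libraries in 29 of 44 members, and isolated islet replicate 1 was the highest isolated islet in 33. The T and B cell markers were also high in the first of these libraries and the beta cell markers in the second. In the second the acinar sum was the lowest of the isolated islets. The part of these cells in these values was not tested. In bulk tissue, fewer cells of a type and less RNA per cell cannot be told apart.

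**Figure D1:**
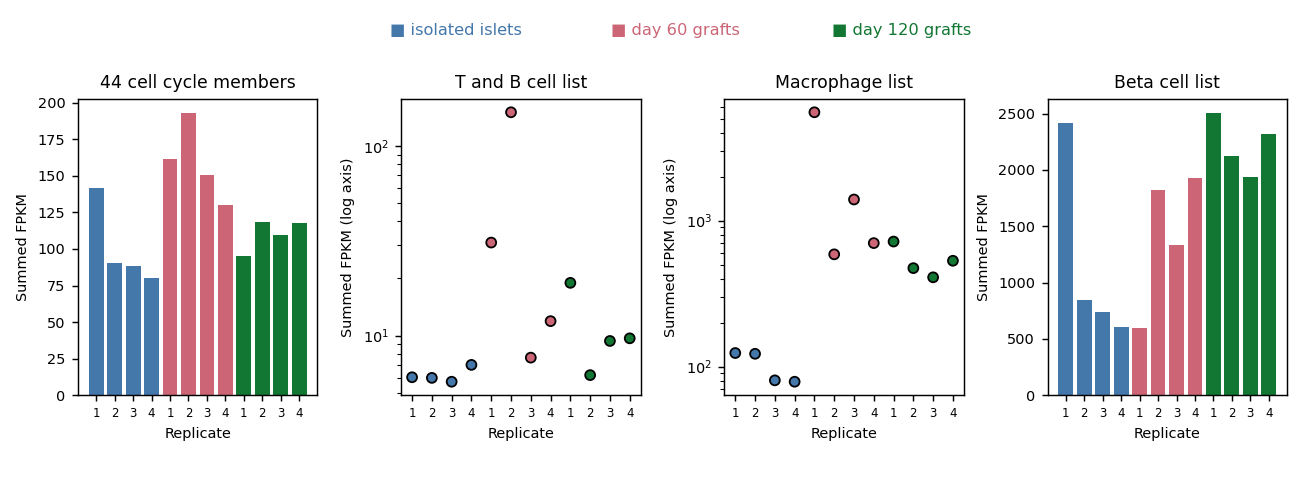
Summed FPKM of the 44 cell cycle members, of the T and B cell, macrophage and beta cell marker lists in each of the 12 libraries (bars from 0, or points on a log axis; colours give the group, numbers the replicate). Day 60 replicate 2 has the highest member sum, 193, and the highest T and B cell sum, 150, and isolated islet replicate 1 stands above the other isolated islets for the members and the beta cell list.

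Tests were made with limma on log2(FPKM + 1), which understates the change of low genes. The test took genes with 1 FPKM or more in 4 or more libraries, which 37 of the 44 members met. The other 7 were Cdc6, Uhrf1, Foxm1, Cenpf, Tpx2, Bub1 and Aurkb. Ccnb1 met the filter only through the 4 day 60 grafts, the group in which it was highest. Its calls and its place in the counts below are therefore not independent of the filter. A member is said to have risen or fallen where the p-value, adjusted over all 13433 genes tested, was under 0.05. All changes are log2 differences with a standard error (SE), and all levels with ± are means and SD of 4 libraries.

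At day 60, 15 of the 44 members rose and 0 fell. The rises ran from 0.48 for Ccne2 to 1.13 for Ezh2. They came from every role but the spindle checkpoint and anaphase promoting complex, of which only 3 members were tested. The 15 make up 40.5% of the 37 tested members, where 31.3% of all tested genes rose and 12.3% fell. With no filter on low values, 14 of the 44, or 31.8%, rose, and Bub1 and Aurkb were then among them. Of all 23234 genes 16.6% rose. These 2 shares are not alike, since 9801 of the 23234 genes fail the filter on low values, against 7 of the 44 members. Whether the members' share differs from that of other genes was not tested. Of the 37 tested members, 17 had an unadjusted limma p under 0.05, all higher. Among all 13433 tested genes 7056 had such a p, in either direction. The median change was 0.44 over the tested members and 0.38 over all 44, against 0.27 over all tested genes. The day 60 and isolated islet libraries did not overlap in 10 members, all higher. Of these 7 were tested, or 18.9% of the tested members, against 22% of tested genes higher and 9.01% lower. The mean was higher in 40 of the 44 members, and in 64% of all tested genes. Of the 40, 2 tested members turned with upper-quartile scaling, 6 with scaling to the sum without hormone and acinar genes and 12 with quantile normalization. With those scalings 11, 4 and 3 members rose and 1, 1 and 3 fell, that is 29.7%, 10.8% and 8.11% of the tested members higher and 2.7%, 2.7% and 8.11% lower. Of all tested genes 25.8%, 18.2% and 17.8% then rose and 16.8%, 20.1% and 21.7% fell. Cdk2 and Cdc45 rose in all 22 other settings in which they were tested, these 3 included. Markers of some other cells rose at day 60 as well. Past the threshold were 12 of 13 macrophage and 10 of 10 fibroblast and matrix markers. So were 7 of 8 adipocyte, 5 of 6 red blood cell and 3 of 6 tested T and B cell markers. Of 11 endothelial markers 3 rose (27.3%), and of 8 tested duct markers 0 rose and 5 fell. Of 9 beta cell markers 0 rose and 1 fell, with a lower mean in 8. All 20 acinar markers fell, at day 120 as well. Their sum was 9282 to 106600 FPKM in isolated islets, 16.4 to 25.1 at day 60 and 10.05 to 16.4 at day 120. The part of these cells in the members' rises was not tested.

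Without day 60 replicate 2, 10 members rose and 0 fell, or 27.0% of the tested members higher against 30.5% of all tested genes. Ccne2, Ccnb1, Ccnb2, Top2a and Birc5 no longer passed, at adjusted p-values from 0.0509 to 0.125. Without isolated islet replicate 1, 20 rose and 0 fell, adding Mcm2, Mcm4, Cdk1, Aurka and Ube2c, or 54.1% against 37.0%. Without any single one of isolated islet replicates 2, 3 and 4, 9 rose, or 24.3%, against 23.7%, 22.9% and 22.6% of all tested genes. With isolated islet replicate 1 and day 60 replicate 2 both left out, a choice made after the data had been seen, 18 rose and 3 fell, the latter being Cdt1, Mcm6 and Bub1b. These are 48.6% and 8.11% of the tested members, where 37.0% of all tested genes rose and 14.4% fell.

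**Figure D2:**
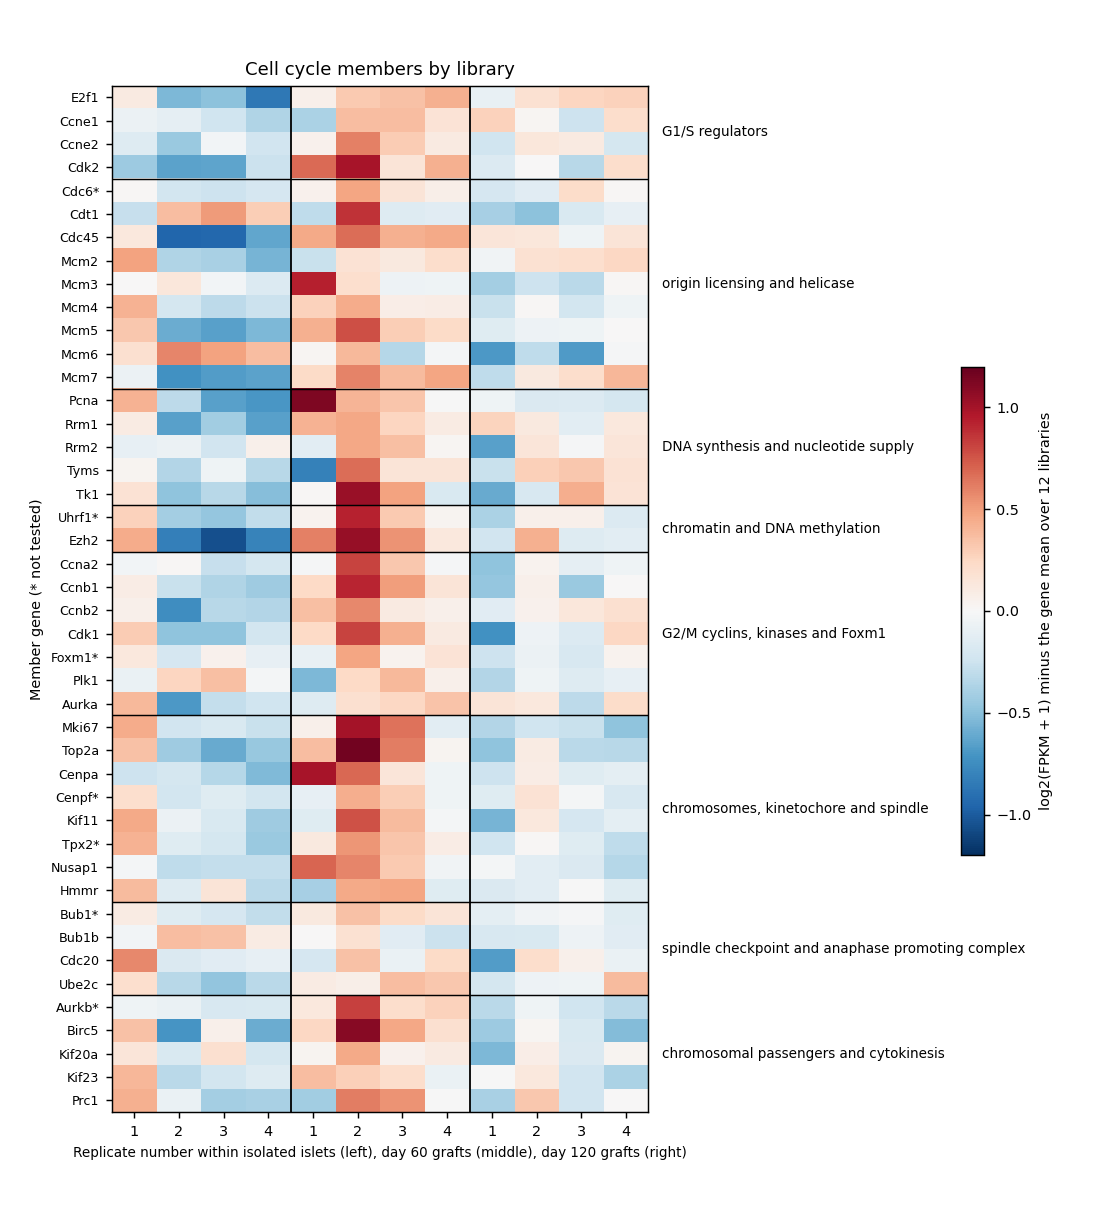
Level of each of the 44 members in each library as log2(FPKM + 1) minus the gene's mean over the 12 libraries (red above, blue below), ordered by role, with * for the 7 members not tested. The columns of isolated islet replicate 1 and day 60 replicate 2 are redder than the other columns of their groups, and Mcm6, Cdt1 and Bub1b run against most other rows, with high values in isolated islet replicates 2 to 4.

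**Figure D3:**
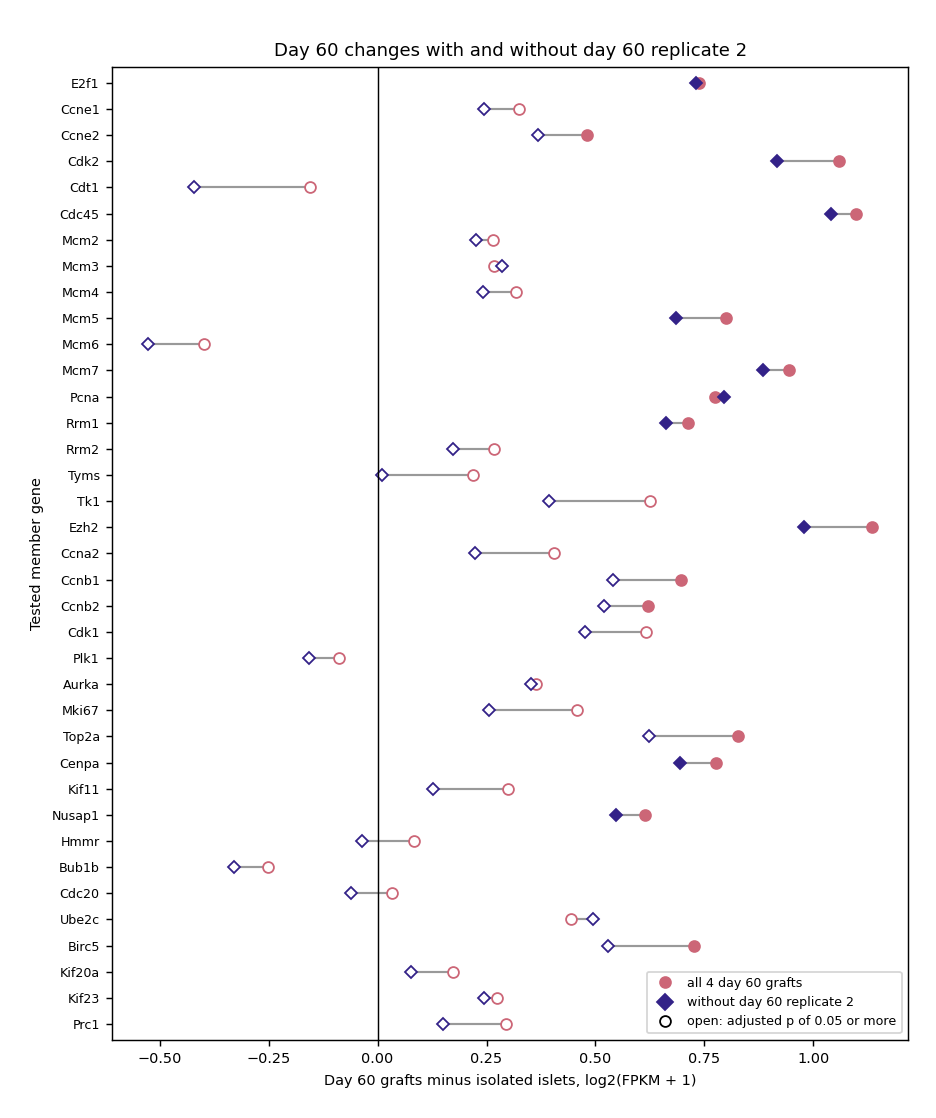
Day 60 minus isolated islet difference in log2(FPKM + 1) for the 37 tested members with all 4 day 60 grafts (circles) and without day 60 replicate 2 (diamonds), filled where the adjusted p was under 0.05. Most differences move down without that library, and 10 of 15 stay past the threshold.

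Among the regulators of S phase entry, 3 of 4 rose at day 60, where 31.3% of all tested genes rose. Cdk2, the kinase partner of cyclin E, was at 1.43, 1.11, 1.12 and 1.75 FPKM in isolated islets, at 4.28, 5.54, 2.67 and 3.43 in day 60 grafts and at 1.93, 2.31, 1.61 and 2.8 in day 120 grafts. All day 60 values lay above all isolated islet values, while the day 120 values overlapped both. The day 60 difference was 1.06 (SE 0.21, adjusted p = 0.00244), and it was 0.92 without day 60 replicate 2 (adjusted p = 0.00565). At day 120 the difference from isolated islets was 0.42 (SE 0.21, adjusted p = 0.134), which did not pass.

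E2f1, a transcription factor that activates S phase genes, was at 6.37, 3.69, 3.87 and 2.77 FPKM in isolated islets, at 6.16, 7.51, 7.76 and 8.21 in day 60 grafts and at 5.41, 6.76, 7.18 and 7.29 in day 120 grafts. Only isolated islet replicate 1 reached the range of the grafts. E2f1 rose at day 60 by 0.74 (SE 0.20, adjusted p = 0.0116) and at day 120 by 0.60 (SE 0.20, adjusted p = 0.0389). Neither rise passed with quantile normalization or with the sum without hormone and acinar genes, and the day 120 rise did not pass with upper-quartile scaling. The cyclin E genes were lower expressed. Ccne2 rose from 0.915 ± 0.225 to 1.69 ± 0.480 FPKM at day 60 (0.48, SE 0.18, adjusted p = 0.0459), with no overlap of the groups. That call was lost in 16 of 22 other settings, among them a pseudocount of 0.1 and all 3 scalings (0.0014 with quantile normalization). Ccne1 went from 1.34 ± 0.209 to 1.98 ± 0.661 FPKM, a difference of 0.32 (SE 0.20, adjusted p = 0.209) that did not pass and turned to -0.15 with quantile normalization.

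The origin and helicase genes divided. Of the 8 tested, 3 (37.5%) rose and 0 fell at day 60, where 31.3% of all tested genes rose and 12.3% fell. At day 120, 2 (25.0%) rose and 1 (12.5%) fell, where 24.3% and 7.03% of all tested genes did. Cdc45, which joins the Mcm ring to form the active helicase, was at 1.93, 0.391, 0.395 and 0.744 FPKM in isolated islets, at 2.67, 3.27, 2.59 and 2.68 in day 60 grafts and at 1.97, 1.94, 1.58 and 1.98 in day 120 grafts. The day 60 values lay above all others, and isolated islet replicate 1 lay within the day 120 range. Cdc45 rose by 1.10 at day 60 (SE 0.22, adjusted p = 0.00292) and by 0.69 at day 120 (SE 0.22, adjusted p = 0.0343). The day 120 rise did not pass under any of the 3 scalings (adjusted p from 0.0625 to 0.365).

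Mcm7 was at 4.76, 2.65, 2.8 and 2.86 FPKM in isolated islets, at 6.07, 8.13, 6.83 and 7.38 in day 60 grafts and at 3.88, 5.56, 6.00 and 6.95 in day 120 grafts. The day 60 grafts lay above every isolated islet, and 1 day 120 graft lay below isolated islet replicate 1. Mcm7 rose by 0.94 at day 60 (SE 0.20, adjusted p = 0.00347) and by 0.63 at day 120 (SE 0.20, adjusted p = 0.0316). With the sum without hormone and acinar genes these became 0.64 (adjusted p = 0.0535) and 0.49 (adjusted p = 0.159), so neither passed.

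Mcm6 went the other way. It was at 5.90, 8.06, 7.43 and 6.76 FPKM in isolated islets, at 5.12, 6.88, 3.74 and 4.91 in day 60 grafts and at 2.74, 3.89, 2.75 and 4.97 in day 120 grafts. All day 120 grafts lay below all isolated islets, while a single day 60 graft, replicate 2, reached into their range. The difference was -0.40 at day 60 (SE 0.21, adjusted p = 0.13) and Mcm6 fell by 0.83 at day 120 (SE 0.21, adjusted p = 0.0124). The day 120 fall passed under each of the 3 scalings (adjusted p from 0.00402 to 0.012), where at day 60 Mcm6 passed as lower too (adjusted p from 0.0233 to 0.0487).

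The ratio of Mcm7 to Mcm6 within a library is unchanged by any scaling that multiplies the library by 1 factor. Quantile normalization is no such scaling, and it gave day 60 differences of 0.59 for Mcm7 and -0.67 for Mcm6. In the deposited FPKM the log2 ratio was -0.31, -1.61, -1.41 and -1.24 in isolated islets, 0.25, 0.24, 0.87 and 0.59 in day 60 grafts and 0.50, 0.52, 1.13 and 0.48 in day 120 grafts. Mcm6 was thus above Mcm7 in 4 of 4 isolated islets and Mcm7 above Mcm6 in 8 of 8 grafts, isolated islet replicate 1 being the nearest to the grafts. Mcm6 made up 23.9%, 42.8%, 42.2% and 40.7% of the summed FPKM of Mcm2 to Mcm7 in isolated islets and between 15.0% and 23.2% in the grafts. The pair was chosen after its values had been seen and gets no test.

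The other ring subunits differed less. Mcm5 rose at day 60 from 1.10 ± 0.765 to 2.55 ± 0.634 FPKM (0.80, SE 0.22, adjusted p = 0.0127), with isolated islet replicate 1, at 2.25, inside the day 60 range. Mcm2 was at 5.30, 2.53, 2.45 and 2.07 FPKM in isolated islets and at 2.76, 4.11, 3.89 and 4.24 in day 60 grafts, so replicate 1 of the isolated islets was above every graft. Its difference of 0.27 (SE 0.22, adjusted p = 0.354) did not pass, and it turned to -0.01 with the sum without hormone and acinar genes and -0.16 with quantile normalization. Mcm3 and Mcm4 differed by 0.27 and 0.32 and did not pass. Cdt1, which loads the ring, was at 1.07, 2.23, 2.56 and 2.06 FPKM in isolated islets and at 1.02, 3.56, 1.25 and 1.28 in day 60 grafts. Day 60 replicate 2 alone lay above the isolated islets, and the difference was -0.16 with it and -0.42 without it, neither of which passed. Cdc6, the other loader, was below 1 FPKM in all 12 libraries and not tested.

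Of the 5 genes of DNA synthesis and nucleotide supply, 2 (40.0%) rose at day 60, near the 31.3% of all tested genes. Pcna, the sliding clamp of DNA polymerases and the highest expressed member, was at 38.8, 23.0, 17.97 and 17.4 FPKM in isolated islets, at 63.8, 38.5, 36.6 and 28.7 in day 60 grafts and at 27.7, 25.4, 25.6 and 24.7 in day 120 grafts. Isolated islet replicate 1 lay among the day 60 grafts. Pcna rose by 0.77 (SE 0.27, adjusted p = 0.0324), a call that ended when any single one of isolated islet replicates 2, 3 and 4 or day 60 replicates 1 and 3 was left out. Rrm1, the large subunit of ribonucleotide reductase, rose from 3.07 ± 1.09 to 5.54 ± 0.746 FPKM (0.71, SE 0.19, adjusted p = 0.0114). Its small subunit Rrm2 went from 2.1 ± 0.264 to 2.78 ± 0.718 FPKM (0.27, adjusted p = 0.328) and did not pass. Tk1, a thymidine kinase, went from 1.09 ± 0.500 to 2.34 ± 1.31 FPKM (0.63, SE 0.30, adjusted p = 0.101), with day 60 replicate 2 highest at 4.13. Tyms, the thymidylate synthase, differed by 0.22 and did not pass.

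Ezh2, the histone H3 lysine methyltransferase of Polycomb complexes, had the largest day 60 difference of the tested members. It was at 1.93, 0.219, 0.0390 and 0.238 FPKM in isolated islets, at 2.28, 3.44, 2.13 and 1.34 in day 60 grafts and at 0.841, 1.89, 0.929 and 0.968 in day 120 grafts. Only isolated islet replicate 1 reached the graft ranges. Ezh2 rose by 1.13 at day 60 (SE 0.31, adjusted p = 0.012). The day 120 difference of 0.53 (SE 0.31, adjusted p = 0.199) did not pass with all libraries and was 0.87 (adjusted p = 0.0119) without isolated islet replicate 1. Uhrf1, which recruits the maintenance DNA methyltransferase, was not tested; it was above 1 FPKM in isolated islet replicate 1 and day 60 replicates 2 and 3.

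Among the 6 tested G2/M genes, the mitotic cyclins Ccnb1 and Ccnb2 rose at day 60. They make up 33.3%, near the 31.3% of all tested genes. Ccnb1 was at 0.926, 0.506, 0.408 and 0.345 FPKM in isolated islets, at 1.14, 2.42, 1.57 and 1.01 in day 60 grafts and at 0.310, 0.885, 0.328 and 0.820 in day 120 grafts. The day 60 grafts lay above all other libraries. They were also the only libraries at 1 FPKM or more, so Ccnb1 met the filter on low values through them alone. Its test is not independent of that filter. The day 60 difference of Ccnb1 was 0.70 (SE 0.21, adjusted p = 0.0199), and 0.54 without day 60 replicate 2 (adjusted p = 0.0509), which did not pass. Ccnb2, whose promoter carries CHR elements, was at 1.34, 0.342, 0.788 and 0.764 FPKM in isolated islets, at 1.89, 2.36, 1.42 and 1.35 in day 60 grafts and at 1.05, 1.34, 1.48 and 1.57 in day 120 grafts. Day 60 replicate 4 and isolated islet replicate 1 nearly met. Ccnb2 rose by 0.62 (SE 0.20, adjusted p = 0.0232) and was at 0.52 without day 60 replicate 2 (adjusted p = 0.0576).

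Cdk1, the kinase of cyclin B, was at 1.47, 0.431, 0.433 and 0.714 FPKM in isolated islets and at 1.36, 2.52, 1.68 and 1.16 in day 60 grafts. The difference of 0.62 (SE 0.25, adjusted p = 0.0619) did not pass with all libraries and did at 0.79 without isolated islet replicate 1 (adjusted p = 0.0178). Ccna2, cyclin A, went from 3.11 ± 0.4 to 4.57 ± 1.62 FPKM (0.40, adjusted p = 0.134). Aurka, a spindle pole kinase, differed by 0.36 and Plk1, the polo-like kinase, by -0.09, and neither passed. Foxm1, a transcription factor of G2/M genes, stayed below 1 FPKM in all libraries but day 60 replicate 2, at 1.43.

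Of the chromosome, kinetochore and spindle genes, 3 of the 6 tested rose at day 60, where 31.3% of all tested genes rose. Top2a, the topoisomerase that untangles sister chromatids, was at 2.42, 0.989, 0.765 and 0.961 FPKM in isolated islets, at 2.46, 4.98, 3.10 and 1.75 in day 60 grafts and at 0.914, 1.87, 1.14 and 1.13 in day 120 grafts. Day 60 replicate 2 was the highest library, and isolated islet replicate 1 lay within the day 60 range. The day 60 difference of Top2a was 0.83 (SE 0.27, adjusted p = 0.0259), and 0.62 without day 60 replicate 2 (adjusted p = 0.0694), which did not pass. It was lost in 10 of 22 other settings. Cenpa, the centromeric histone, rose from 1.04 ± 0.195 to 2.62 ± 1.2 FPKM (0.78, SE 0.22, adjusted p = 0.0141), with no overlap and its highest value, 4.08, in day 60 replicate 1. Nusap1, a spindle microtubule protein, rose from 0.914 ± 0.189 to 1.97 ± 0.649 FPKM (0.61, SE 0.19, adjusted p = 0.0184).

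Mki67, the gene of the proliferation marker Ki-67, was at 2.39, 1.12, 1.18 and 1.06 FPKM in isolated islets, at 1.60, 3.98, 2.91 and 1.28 in day 60 grafts and at 0.948, 1.10, 1.06 and 0.776 in day 120 grafts. Day 60 replicates 2 and 3 were above every isolated islet, and replicates 1 and 4 lay inside the isolated islet range. The difference was 0.46 (SE 0.25, adjusted p = 0.157), or 0.26 without day 60 replicate 2 (adjusted p = 0.399), and did not pass either way. Kif11, a spindle motor, and Hmmr, a spindle assembly protein, differed by 0.30 and 0.08 and did not pass. The mitotic spindle genes Cenpf and Tpx2 were not tested.

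Of the spindle checkpoint and anaphase promoting complex members only 3 were tested, and 0 passed at day 60, where 31.3% of all tested genes rose. Mad2l1, a checkpoint gene outside the members, did rise, as given below. Ube2c, the ubiquitin-conjugating enzyme of that complex, was at 5.17, 3.26, 2.86 and 3.28 FPKM in isolated islets and at 4.73, 4.61, 5.89 and 5.71 in day 60 grafts, so isolated islet replicate 1 lay among the grafts. Its difference was 0.44 (SE 0.19, adjusted p = 0.0783). Ube2c was among the 20 members that rose once that library was left out, or 54.1% of the tested members against 37.0% of all tested genes. Cdc20, the activator of the complex, differed by 0.03, with its sign turning in 8 of 22 other settings, and Bub1b, a checkpoint kinase-like protein, by -0.25. The checkpoint kinase Bub1 was at 0.564 FPKM or less in every library and not tested.

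Among the 4 tested chromosomal passenger and cytokinesis genes Birc5 alone rose at day 60, or 25.0%, where 31.3% of all tested genes rose. Birc5, also known as survivin, was at 2.12, 0.494, 1.55 and 0.619 FPKM in isolated islets, at 1.92, 4.21, 2.39 and 1.80 in day 60 grafts and at 0.811, 1.48, 1.16 and 0.711 in day 120 grafts. Isolated islet replicate 1 lay inside the day 60 range and day 60 replicate 2 far above it. The difference was 0.73 (SE 0.27, adjusted p = 0.0463), and 0.53 without day 60 replicate 2 (adjusted p = 0.125), which did not pass. The call of Birc5 was lost in 15 of 22 other settings. Kif20a, Kif23 and Prc1, which act at the central spindle, differed by 0.17, 0.27 and 0.30 and did not pass. Aurkb, the kinase of the passenger complex, was not tested, since it passed 1 FPKM in day 60 replicate 2 alone, at 1.67.

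**Figure D4:**
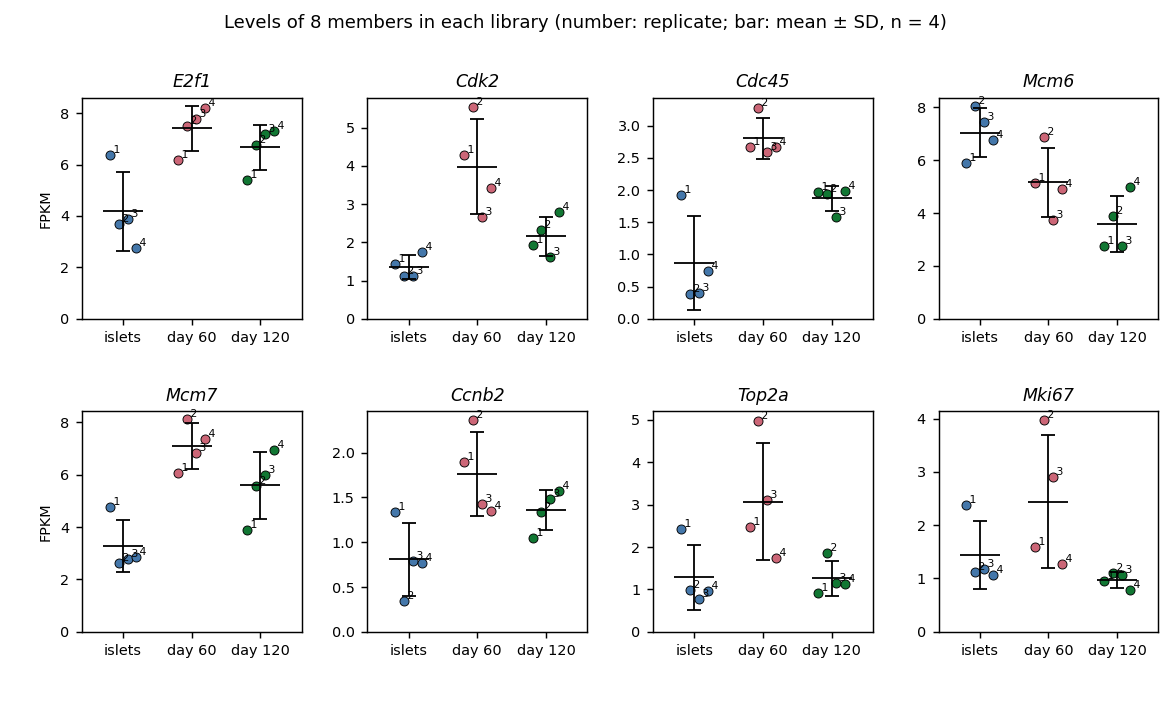
FPKM of 8 members in every library, with the replicate number beside each point and the mean and SD of the 4 libraries as bars. Cdk2 and Cdc45 lie above all isolated islets at day 60, Mcm6 lies below them at day 120, and Mki67 and Top2a are highest in day 60 replicate 2.

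At day 120, 3 of the 44 members rose, E2f1, Cdc45 and Mcm7, and Mcm6 fell. The 3 rises make up 8.11% of the tested members, where 24.3% of all tested genes rose, and the single fall 2.7%, where 7.03% fell. Unadjusted limma p-values under 0.05 numbered 4 for higher and 1 for lower members, out of 37 tested. Among all 13433 tested genes they numbered 6020, in either direction. The median change was 0.04 over the tested members against 0.30 over all tested genes. The groups did not overlap in 0 members that were higher, against 28.3% of tested genes, and in 2 that were lower, Mcm6 and Bub1b, or 5.41% of the tested members, against 7.24%. Bub1b was at 0.871, 1.48, 1.44 and 1.05 FPKM in isolated islets and at 0.675, 0.680, 0.828 and 0.737 in day 120 grafts, and its difference of -0.34 (SE 0.16, adjusted p = 0.114) did not pass.

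None of the 3 rises passed under any of the 3 scalings, nor without any single one of isolated islet replicates 2, 3 and 4 or day 120 replicates 2, 3 and 4. Without isolated islet replicate 1, 8 members rose and 2 fell, or 21.6% and 5.41% of the tested members, where 31.4% of all tested genes rose and 10.3% fell. With quantile normalization 11 members passed as lower, or 29.7% against 13.6% of all tested genes, among them Mki67 at -0.75 (adjusted p = 0.0292). The fall of Mcm6 passed in all 23 other settings tried. The remaining members named by rule did not pass and lay near the isolated islets: Pcna at 0.16 (SE 0.27, adjusted p = 0.667), Ccne1 at 0.26 (SE 0.20, adjusted p = 0.332) and Mcm2 at 0.35 (SE 0.22, adjusted p = 0.235). Of the mitotic members, Ccnb1 differed by 0.03 (SE 0.21, adjusted p = 0.928), Cdk1 by 0.04 (SE 0.25, adjusted p = 0.907), Top2a by 0.02 (SE 0.27, adjusted p = 0.959) and Mki67 by -0.28 (SE 0.25, adjusted p = 0.408). The first 3 of these mitotic differences turned negative under each of the 3 scalings.

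**Figure D5:**
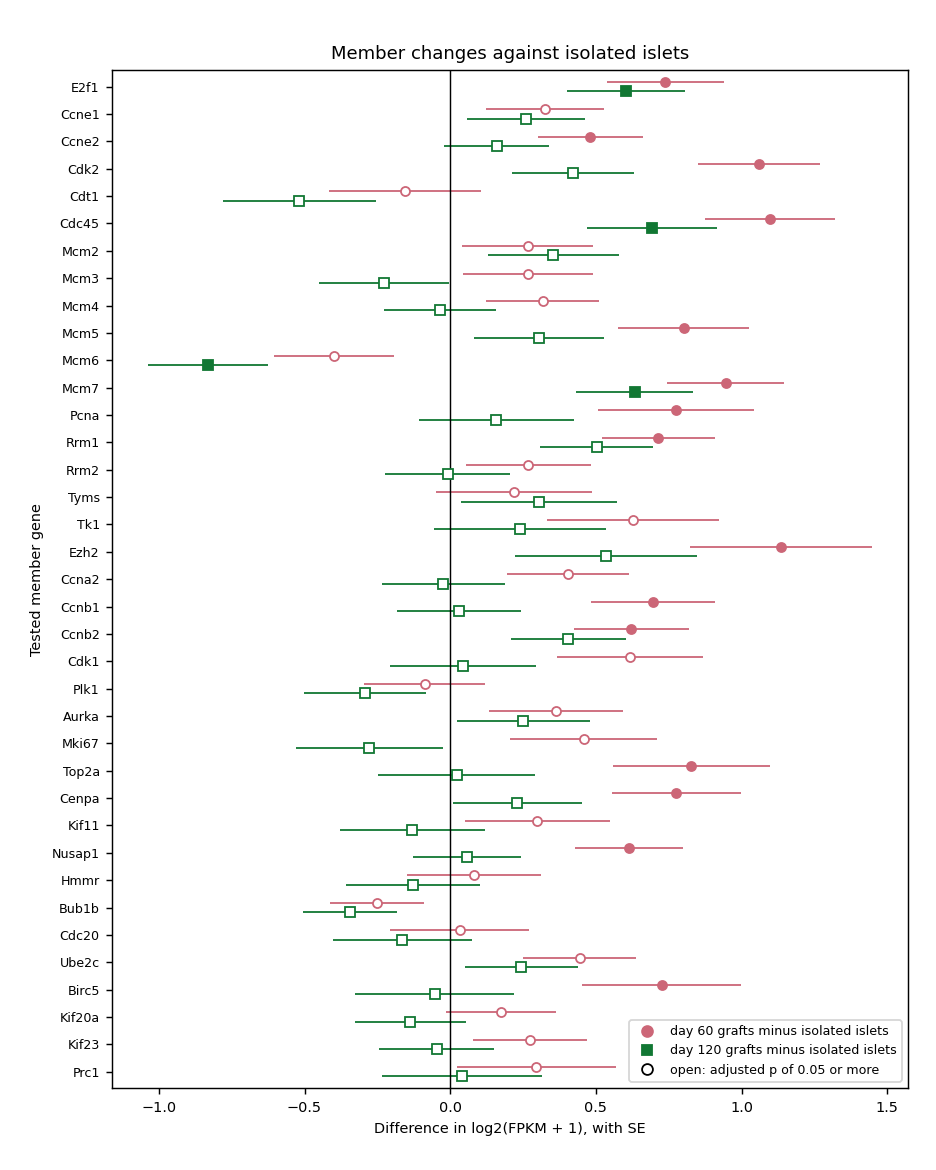
Difference from isolated islets in log2(FPKM + 1), with its SE, of the 37 tested members at day 60 (circles) and day 120 (squares), filled where the adjusted p was under 0.05. At day 60, 15 circles are filled, all above 0 in the deposited scaling, and at day 120 the filled squares are E2f1, Cdc45 and Mcm7 above 0 and Mcm6 below.

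Between the grafts, 0 members passed (limma adjusted p from 0.49 to 0.92), but 42 of the 44 had a lower mean at day 120 than at day 60. Of the 35 tested members among them, 31 kept that direction in all other settings. E2f1, Ccne1, Aurka and Cdc20 turned in 1 to 5 settings each, reaching 0.0478 at most. Of all tested genes 0.00744% passed as higher and 0.00744% as lower. At an unadjusted p under 0.05 there were 11 members, all lower, and 1356 genes in all. The median difference was -0.35 over the tested members against 0.03 over all tested genes, of which 54.1% had a higher mean at day 120. The libraries of both graft groups did not overlap in 10 members, all lower at day 120. Of these 7 were tested, or 18.9% of the tested members, where 1.38% of tested genes were lower and 2.91% higher without overlap. The 10 were Cdc45, Mcm4, Mcm5, Pcna, Ccnb1, Mki67 and Birc5 and, untested, Tpx2, Bub1 and Aurkb. Of these, Ccnb1 had met the filter on low values through the day 60 grafts alone.

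Markers of some other cells moved with them between the grafts, although 0 passed (limma). The mean was lower at day 120 in 13 of 13 macrophage markers (median -1.19), 10 of 10 T and B cell markers (-1.05), 10 of 10 fibroblast and matrix markers (-1.43) and 8 of 8 adipocyte markers (-1.51). It was higher in 9 of 9 beta cell markers (0.91). Endothelial markers were lower in 7 of 11 (-0.18). Red blood cell markers were higher in 5 of 6 (0.09) and duct markers in 7 of 9 (0.19). The summed macrophage level was 588 to 5525 FPKM at day 60 and 409 to 719 at day 120, and the fibroblast and matrix level 816 to 5861 and 337 to 833. The beta cell sum was 600 to 1926 and 1937 to 2506, without overlap. The part of these cells in the members' differences was not tested.

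The named members kept to that direction with 1 exception. Top2a differed by -0.81 (SE 0.27), Mki67 by -0.73 (SE 0.25), Ccnb1 by -0.67 (SE 0.21), Cdk2 by -0.64 (SE 0.21), Pcna by -0.62 (SE 0.27), Ezh2 by -0.60 (SE 0.31) and Cdk1 by -0.57 (SE 0.25), with adjusted p-values of 0.49 to 0.506. E2f1 and Ccne1 differed by -0.14 and -0.06 and Mcm2 by 0.09. Without day 60 replicate 2, the library rich in T and B cell markers, 41 of 44 means were lower and the median over all 44 was -0.25 in place of -0.34. Of the tested members 7 then did not overlap, all lower, or 18.9% against 4.12% of tested genes. Without day 60 replicate 1, the library richest in macrophage, fibroblast and adipocyte markers, 44 of 44 were lower. Of the tested members 9 then did not overlap, all lower, or 24.3% against 1.93%. By role, the median over all members ran from -0.20 in the checkpoint and anaphase promoting complex genes to -0.52 in the chromatin genes.

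Other genes of the same pathways were counted for comparison, beside the 31.3% of all tested genes that rose and 12.3% that fell at day 60 and the 24.3% and 7.03% at day 120. Of 34 further replication genes, 28 were tested, and 14 of these (50%) rose and 0 fell at day 60, with a median of 0.66, and 8 (28.6%) rose and 0 fell at day 120. Asf1b, a histone chaperone, rose at day 60 from 0.494 ± 0.296 to 2.12 ± 0.578 FPKM (1.06, SE 0.22, adjusted p = 0.00284). Tipin, a fork protection protein, rose from 8.94 ± 0.971 FPKM to 16.0 ± 2.01 at day 60 (0.77, adjusted p = 0.00341) and 14.3 ± 2.33 at day 120 (0.61, adjusted p = 0.0163). Gins3, a part of the helicase, rose at day 120 by 0.75 (adjusted p = 0.0218).

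Of 52 further mitosis genes, 21 were tested, 10 of these (47.6%) rose and 0 fell at day 60, and 5 (23.8%) rose and 0 fell at day 120. Cdc25b, a phosphatase that activates cyclin-dependent kinases, was at 1.63, 0.730, 1.62 and 1.46 FPKM in isolated islets, at 3.77, 7.17, 3.78 and 5.49 at day 60 and at 4.37, 4.49, 3.81 and 4.84 at day 120. All 8 grafts were above all isolated islets. Cdc25b rose by 1.34 (SE 0.21, adjusted p = 0.000863) and 1.21 (SE 0.21, adjusted p = 0.0033). Mad2l1, a checkpoint protein, rose by 1.19 at day 60 (adjusted p = 0.00219), and Cks1b, a subunit that binds cyclin-dependent kinases, by 1.08 at day 120 (adjusted p = 0.0146).

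Of 16 genes that control entry into and exit from quiescence, 13 were tested. Of these 6 (46.2%) rose and 1 (7.69%) fell at day 60, and 4 (30.8%) rose and 1 fell at day 120. E2f2, an activator E2F, rose from 0.582 ± 0.236 FPKM to 2.22 ± 0.495 at day 60 (1.02, adjusted p = 0.00121) and 2.28 ± 0.210 at day 120 (1.06, adjusted p = 0.00234). E2f6, a repressor E2F, rose by 1.11 (adjusted p = 0.0049) and 1.25 (adjusted p = 0.00583). Myc, a transcription factor of growth and division, fell from 11.0 ± 1.83 FPKM to 4.41 ± 1.80 at day 60 (-1.21, adjusted p = 0.0068) and 3.20 ± 1.58 at day 120 (-1.58, adjusted p = 0.00394), with no overlap at either time.

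Of 12 D cyclins, their kinases and inhibitors, 11 were tested. Of these 4 (36.4%) rose and 2 (18.2%) fell at day 60, and 4 (36.4%) rose and 1 (9.09%) fell at day 120. The inhibitors Cdkn1c and Cdkn2c rose at day 60 by 2.08 (adjusted p = 0.00125) and 2.1 (adjusted p = 0.00256), both highest in day 60 replicate 1, at 16.8 and 62.0 FPKM. The inhibitor Cdkn1a, known as p21, was at 25.9, 47.7, 41.1 and 42.0 FPKM in isolated islets, at 27.7, 6.89, 12.6 and 9.4 at day 60 and at 9.05, 7.30, 8.06 and 9.41 at day 120. Day 60 replicate 1 alone among the grafts reached the isolated islet range. Cdkn1a fell by 1.55 (SE 0.33, adjusted p = 0.00335) and 2.06 (SE 0.33, adjusted p = 0.00197). Ccnd2, a D cyclin expressed in beta cells, fell by 0.73 at day 60 (adjusted p = 0.0197), and Cdk4, its kinase, rose by 0.87 at day 120 (adjusted p = 0.0101). In the comparison of the grafts 0 genes of these 4 lists passed (limma). The lowest share of lower means at day 120 was in the quiescence list, 8 of 16, against 30 of 34 and 48 of 52 in the replication and mitosis lists.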

How the data were processed

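RNA was measured in 12 libraries, 4 each of isolated islets, day 60 grafts and day 120 grafts. The deposited table holds the authors' FPKM, with genes in rows and a column for each library. Mouse build mm9, TopHat2 2.8.0 and Cufflinks 2.1.1 are named per the submitters' processing notes; annotation, options and any scaling between libraries are not given in the sources used here. Depth is unknown, and the FPKM summed to 396769 to 786366 per library. RNA of nearby or overlapping genes and of near-identical copies cannot be told apart in such a table.

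From the FPKM, log2(FPKM + 1) was fitted in limma 3.58.1 (R 4.3.3, statmod 1.5.0) with robust variances and a mean-variance trend, over all 12 libraries and no term but group. Genes with at least 1 FPKM in at least 4 libraries (13433) were tested, two-sided, with Benjamini-Hochberg adjustment over all of them. The threshold was 0.05, and every adjusted p given is limma's. The fit was tested on simulated data. Alternatives were another pseudocount, other filters, 3 scalings, fewer libraries, array weights and a replicate block. Members with a full test are those called (all if at most 10, otherwise the 8 with the smallest p and at least 1 per role) and 10 set by name, and of each further list up to 4 genes with the smallest p. The members, lists and rule were chosen with earlier results of these data known. Same-numbered day 60 and day 120 grafts deviated together (correlations 0.402, 0.442, 0.18 and 0.23, each best with its own number). The labels used here state no pairing. The main fit took none, and the replicate block was tried only as an alternative. The isolated islets did not pair with the grafts (-0.078 to 0.02). Promoter windows are from RefSeq on GRCm38.p6, not the build of the files.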

Additional observations from a re-analysis of the deposited data

Results flagged for a closer look

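A library was flagged where its gap to the nearest of the other 3 took up more of its group's range than Dixon's critical value for 4 samples. Of 132 sets of 4 values, 16 were flagged. The rule flags about 1 in 20 sets of independent normal values. These sets share the same 12 libraries and are not independent, so the count cannot be set against that rate. Isolated islet replicate 1 gave 11 of them, all high. It was at 0.358 FPKM of Cdc6, 5.30 of Mcm2, 4.31 of Mcm4, 2.25 of Mcm5 and 4.76 of Mcm7. The same library was at 1.93 FPKM of Ezh2, 2.39 of Mki67, 2.42 of Top2a, 0.672 of Cenpf, 1.2 of Nusap1 and 2.22 of Cdc20. Day 60 replicate 2 gave 3, all high, at 3.56 FPKM of Cdt1, 3.27 of Cdc45 and 2.03 of Kif20a. Day 120 replicate 3 was low in Cdc45, at 1.58 FPKM, and day 120 replicate 2 was high in Ezh2, at 1.89 FPKM.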

How the results depend on the processing

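In 23 other settings (24 between the grafts), members called higher at day 60 numbered 4 with at least 5 FPKM in at least 4 libraries, where only 7 members were tested. They numbered 3 with quantile normalization, 4 when scaled to the sum without hormone and acinar genes, 9 with the 8 libraries of the comparison, 30 with array weights, 26 without isolated islet replicate 1 and day 60 replicate 1 together, and 9 to 20 with replicates left out singly. Members called lower there numbered 1 with upper-quartile scaling, 1 with the sum, 3 with quantile normalization, 3 with array weights and 3 without isolated islet replicate 1 and day 60 replicate 2. At day 120, members called higher numbered 0 without the filter and under all 3 scalings, 1 with a replicate block, 13 with array weights, 9 and 8 with those pairs of libraries left out, and 0 to 8 with single replicates left out. Members called lower numbered 11 with quantile normalization, 4 with array weights, 3 and 3 with those pairs left out and 1 to 2 with single replicates left out. The replicate block gave 13 members higher at day 60, where the isolated islet numbers do not pair. Between the grafts it gave 0, as did the blocked fit of the grafts alone, so no member's call changed there. Array weights, which stopped short of their convergence tolerance, gave 17 members lower between the grafts and 10359, 8943 and 2874 genes in all, against 5865, 4212 and 2. Genes called at day 120 were 7571 without isolated islet replicate 1 and day 60 replicate 1, and 1986 to 6031 with single replicates left out. Between the grafts they were 1 with the stricter filter, and 2 to 21 with single replicates left out. Scaling also moved the share of called genes that were higher, from 71.8% at day 60 to 60.6% (upper-quartile), 47.5% (sum) and 45.2% (quantile), and from 77.6% at day 120 to 63.8%, 62.4% and 45.6%, and the median of all tested genes from 0.27 to 0.13, -0.03 and -0.04 and from 0.30 to 0.17, 0.15 and 0.02. The cause of these shifts was not tested.

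Directions turned for members near 0. At day 60 Mcm2 was -0.0067 with the sum and -0.16 with quantile normalization, and Ccne1 -0.15 with the latter. At day 120, upper-quartile scaling gave Top2a -0.0633, Cdk1 -0.0273 and Ccnb1 -0.0277. The sum gave Top2a -0.0807, Cdk1 -0.0343, Ccnb1 -0.0359 and Pcna -0.0244. Quantile normalization gave Top2a -0.44, Cdk1 -0.41, Ccnb1 -0.45, Mcm2 -0.0778, Ccne1 -0.22 and Cdk2 -0.0558. Between the grafts Ccne1 was 0.0262 and E2f1 0.0213 with the sum, Mcm2 -0.0198 without isolated islet replicate 1 and day 60 replicate 1, and Ccne1 0.0153 without isolated islet replicate 1 and day 60 replicate 2. With single replicates left out, Top2a ran from -0.0975 to 0.2335, Cdk1 from -0.0968 to 0.2267 and Ccnb1 from -0.0601 to 0.1403 at day 120, and Mcm2 from -0.0198 to 0.1512 and Ccne1 from -0.2349 to 0.0414 between the grafts. Of 1377 values of single genes in other settings, members kept direction and side of the threshold in 747, weakened in 83, newly passed in 36 and turned in 35, and list genes kept both in 451 and weakened in 25.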
